A study of Mus musculus with 9 samples.

Results

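Fibroblastic reticular cells (FRCs) of lymph nodes that drained a tumour for 4 days were compared with FRCs of nodes that drained PBS. The comparison rests on 6 of the 9 arrays of the study, 3 for each condition, and was chosen by these labels alone. Of 45281 probes on the array, 15761 had a detection p under 0.01 on at least 3 of the 6 arrays. The detection p is the share of negative control probes at least as bright as the probe, and these 15761 probes stand for 8476 named genes. All mice were female C57BL/6, with no engineered allele named in the labels. Each array held RNA of FRCs pooled from 2 brachial nodes of 1 animal, so the 3 arrays of a group are 3 animals. The remaining 3 arrays, tumour-draining nodes at day 11, entered the fit and are quoted beside the day 4 values. The kind of tumour, the injection site, the age of the mice and the way FRCs were isolated are not given in the sources used here. Tumour, time and any handling that went with them cannot be told apart by this design.

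FRCs are the fibroblasts of the T cell zone. They lay down the collagen conduits that carry lymph-borne antigen through the node and wrap these conduits in their own membranes. They also secrete the chemokines Ccl19 and Ccl21, which draw T cells and dendritic cells together, and the cytokine Il7, which keeps resting T cells alive. A node that receives lymph from an inflamed or tumour-bearing site usually swells, and its FRC network stretches and divides to follow. Day 4 is early in that sequence.

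All values below are log2 normalized intensities, and a change is the day 4 mean minus the PBS mean on that scale. Levels of different genes come from different probes and are not compared with each other. Tests are limma's moderated test over all 9 arrays, with Benjamini-Hochberg adjustment over the 15761 probes. A gene is read from its brightest tested probe.

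FRC markers were present in both groups. Of 31 FRC identity genes with a named probe, all 31 passed the detection filter and 27 were detected on all 6 arrays, among them the surface proteins Pdpn and Thy1 and the chemokines Ccl19 and Ccl21a. The receptor Ltbr was detected on 1 of 3 PBS and 2 of 3 day 4 arrays. Some defining genes of other cell types were detected on none of the 6 arrays, such as Cdh5, Kdr and Emcn of blood vessels, Lyve1 and Flt4 of lymphatic vessels, Itgam and C1qa of macrophages and Cd4 and Pax5 of lymphocytes. Other markers of such cells were present: 8 of 19 blood endothelial, 8 of 14 lymphatic endothelial and 15 of 27 myeloid markers on the array passed the detection filter. So did 9 of 16 T cell and 10 of 13 B cell markers. Among them Ptprc, the pan-leukocyte phosphatase CD45, and the endothelial receptor partner Ramp2 were detected on all 6 arrays.

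PBS replicate 1 stood apart from the other 5 arrays. It had 11529 detected probes, against 16489 and 15346 on PBS replicates 2 and 3 and 17627, 15198 and 15563 on the day 4 arrays. The first principal component, 34.1% of the variance of the tested genes, placed it at -69.2 and the other 5 arrays between 13.1 and 14.9. Its mean correlation with the other PBS arrays was 0.779. The number of detected probes averaged 14500 ± 2600 for PBS and 16100 ± 1310 for day 4 (SD, n = 3 each), and an exact two-sided permutation test found no difference (p = 0.5, with 0.1 the smallest p that 3 against 3 arrays allow). Median raw intensity was 96.8 ± 5.78 and 97.8 ± 14.7 (exact permutation p = 0.9). Some of the results that lean on PBS replicate 1 are given with and without it.

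**Figure D1:**
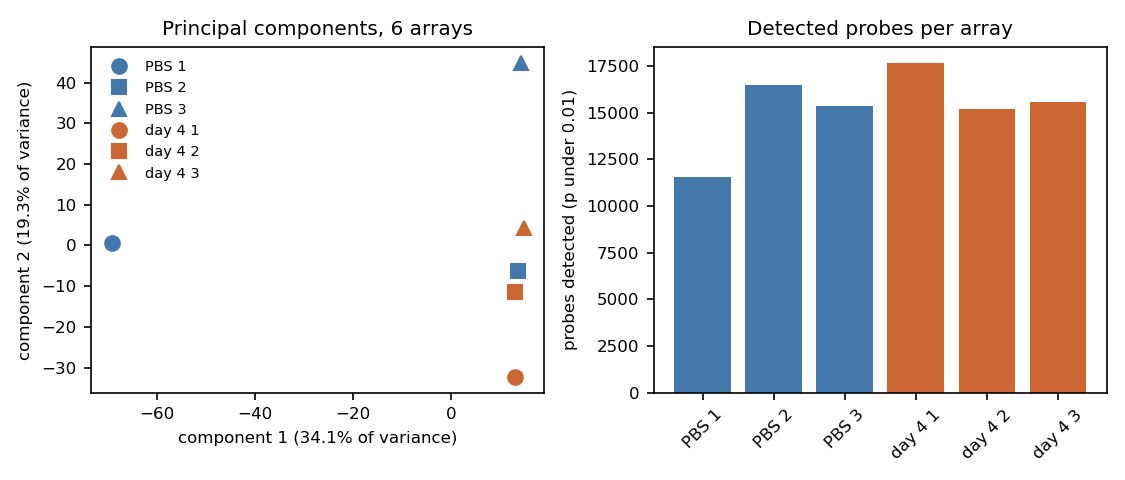
Left, the 6 arrays on the first and second principal components of the tested genes (percent of variance on each axis). Right, the number of probes with a detection p under 0.01 on each array. PBS replicate 1 lies at -69.2 on the first component and has 11529 detected probes, while the other 2 PBS arrays fall among the day 4 arrays on that component.

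No gene passed an adjusted p of 0.05 in limma, in either direction (0% of 8476 genes, smallest adjusted p 0.258). At an unadjusted p under 0.05, 401 genes (4.73%) had higher and 283 (3.34%) lower values at day 4. The 3 PBS and 3 day 4 arrays did not overlap for 528 genes (6.23%) with higher and 366 (4.32%) with lower values. Both directions together made 10.5%, and random labels of 3 against 3 arrays would give a share of 0.1. Since none passed, single genes are described here by their values and not as changed. Without the detection filter the unadjusted counts were 715 of 19057 genes higher (3.75%) and 602 lower (3.16%).

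The 401 to 283 split lay in genes near the detection limit. Among the 5271 genes whose probe was detected on all 6 arrays, 149 had higher and 160 lower values at an unadjusted p under 0.05. Similarly, 301 genes were more than 2-fold higher and 218 more than 2-fold lower, but of the always-detected genes these were 44 and 78. Among the 8476 tested genes, 63 had a probe detected on all day 4 arrays and on no PBS array, against 15 for the reverse. The probe read passed the detection filter through day 4 alone for 80 genes and through PBS alone for 20. Those genes had to differ in that direction. PBS replicate 1 had the fewest detected probes. The split was 376 higher to 334 lower without that array, 608 to 333 without PBS replicate 2, 479 to 334 without PBS replicate 3 and 324 to 281 without day 4 replicate 2. Scaling each array to its 75th percentile, in place of quantile normalization, gave 470 higher and 205 lower. The median change of all 8476 genes was 0.04, with quartiles of -0.26 and 0.35. For always-detected genes the median standard error was 0.33 and the median 95% interval reached 0.74 to either side. These intervals are not adjusted for the number of probes, so 0.74 is not the size of change that would pass the adjusted test. The always-detected gene Plekhm1 changed by 1.68 and did not pass it (limma, adjusted p = 0.282).

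The genes with the lowest p for higher values, among those detected on all 6 arrays, come first. E2f3, a transcription factor that drives cells into S phase, measured 6.93, 6.54 and 6.68 on the PBS arrays and 7.84, 8.16 and 8.20 on the day 4 arrays. The change was 1.35 (SE 0.27, adjusted p = 0.258). Exosc9, a subunit of the exosome that degrades RNA from its 3′ end, measured 6.80, 6.51 and 6.93 in PBS and 8.15, 8.32 and 7.68 at day 4, a change of 1.30 (SE 0.28, adjusted p = 0.258). Plekhm1, an adaptor that tethers late endosomes and autophagosomes to lysosomes, had the widest change of these genes. It measured 6.81, 6.05 and 6.82 against 8.59, 8.37 and 7.77, a change of 1.68 (SE 0.37, adjusted p = 0.282). Ruvbl1, an ATPase of chromatin remodelling complexes, was tight in PBS at 6.53, 6.59 and 6.66 and spread from 7.51 to 8.25 at day 4. That probe changed by 1.34 (SE 0.31), and the other Ruvbl1 probes by 0.55 (SE 0.38) and 0.62 (SE 0.31). Synm, the intermediate filament protein synemin, measured 6.86, 7.12 and 7.29 against 8.77, 8.02 and 8.20, but a second probe changed by 0.21 (SE 0.54). Wdr83, a scaffold of the MAP kinase pathway, went with them at a change of 1.37 (SE 0.32). These genes were chosen among those whose groups do not overlap, so the lack of overlap is no result. Over 19 other settings, which reuse the same arrays, the changes of these genes stayed above 0.72.

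Always-detected genes with the lowest p for lower values follow. Ogfr, the receptor of the opioid growth factor, measured 9.83, 9.36 and 9.43 in PBS and 8.22, 8.08 and 7.53 at day 4. Its change was -1.59 (SE 0.33, adjusted p = 0.258), the largest of the lower always-detected genes named here. Hdac4, a class II histone deacetylase, measured 9.0, 7.93 and 9.07 against 6.77, 7.12 and 7.55, a change of -1.52 (SE 0.40, adjusted p = 0.377). PBS replicate 2 was the lowest of its group for Hdac4. It lay above every day 4 array, as the choice among genes without overlap required. Usb1, an exonuclease that trims the end of U6 spliceosomal RNA, measured 7.83, 8.45 and 7.94 against 7.0, 6.84 and 6.88. Sec22c and Bet1l, both of the vesicle traffic between endoplasmic reticulum and Golgi, changed by -1.04 (SE 0.26) and -1.13 (SE 0.30). Slco1c1, a transporter of thyroid hormone, changed by -1.04 (SE 0.28), with adjusted p = 0.383.

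**Figure D2:**
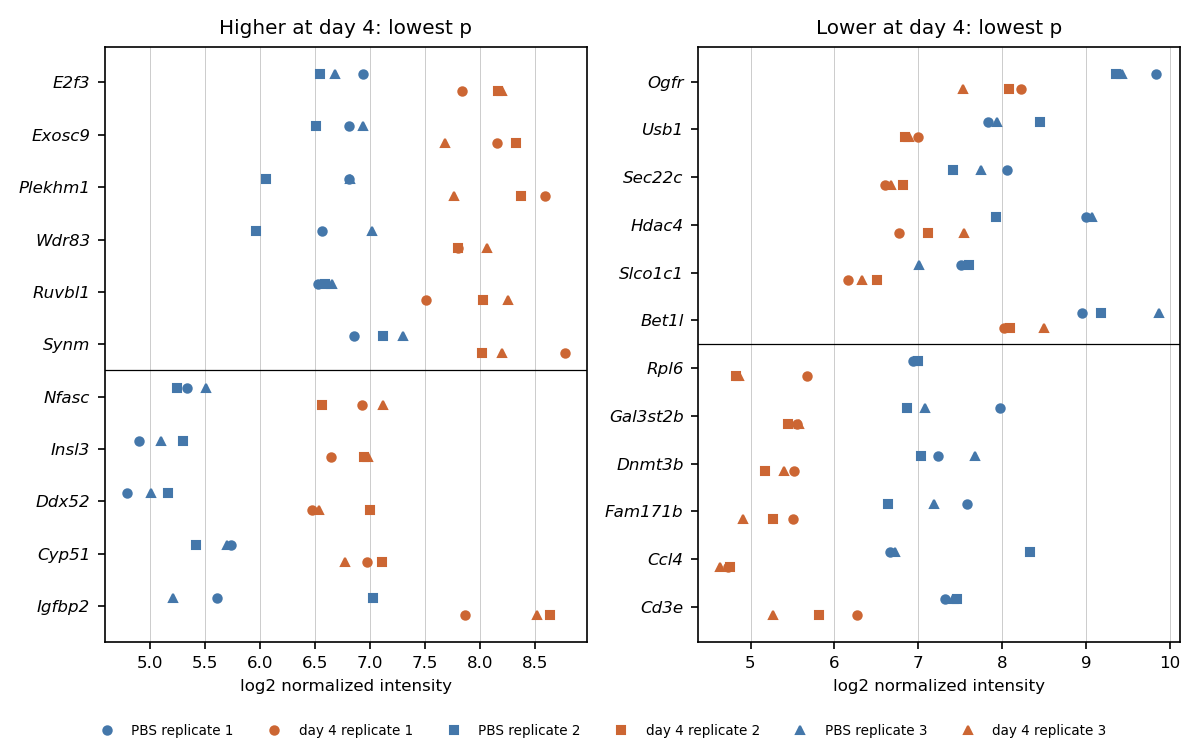
Log2 normalized intensity (horizontal axis) on each of the 6 arrays for the named genes with the lowest p in each direction. Genes above the line were detected on all 6 arrays and genes below it were not. Genes were chosen among those whose PBS (blue) and day 4 (orange) points do not overlap, and none passed an adjusted p of 0.05.

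The other genes with the lowest p had a probe below detection on at least 1 array, where little signal is left to compare. Igfbp2, a secreted binder of insulin-like growth factors, measured 5.61, 7.03 and 5.21 in PBS and 7.86, 8.63 and 8.52 at day 4, a change of 2.39 (SE 0.45, adjusted p = 0.258). Its change without PBS replicate 1 was 2.22. Both probes of Nfasc, a cell adhesion molecule best known from axons, had higher values. The brighter one was detected on no PBS array and measured 6.93, 6.56 and 7.12 at day 4, and the other changed by 1.36 (SE 0.34). Insl3, a relaxin family hormone, and Ddx52, an RNA helicase of ribosome assembly, lacked signal well above background in all PBS animals, and day 4 exceeded PBS by at least 1.78-fold and at least 1.57-fold. Such bounds set the day 4 mean against the dimmest signal that counts as detected on each PBS array. Insl3, Ddx52 and the brighter Nfasc probe passed the detection filter through day 4 alone and so had to differ.

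In the other direction, 4 of the genes with the lowest p were not well above background on any day 4 array. These 4 passed the detection filter through the PBS arrays alone and so had to differ. Dnmt3b, a DNA methyltransferase that sets new methylation, measured 7.23, 7.03 and 7.68 in PBS and 5.52, 5.17 and 5.40 at day 4, and was at least 2.93-fold lower. Gal3st2b, a sulfotransferase, was at least 2.92-fold lower and Fam171b, a membrane protein, at least 2.59-fold lower. Ccl4, a chemokine of activated myeloid cells and lymphocytes, measured 6.67, 8.33 and 6.72 against 4.74, 4.76 and 4.64, at least 2.78-fold lower. Rpl6 measured 6.94, 7.0 and 6.99 against 5.67, 4.83 and 4.86, while the list of 54 tested ribosomal protein genes, Rpl6 included, had 39 with higher values and a median change of 0.06. Rpl21 also had lower values, with a change of -1.26 (SE 0.53) and 1 PBS array within the day 4 range, and its second probe changed by -0.45 (SE 0.52). Rpl6 has many processed pseudogenes, and 1 probe reads it here.

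No gene that defines FRC function passed the adjusted test. Of 15 such genes read whatever their result, Vcam1 alone had a 95% interval that did not include 0. The 15 intervals together spanned -1.36 to 1.31, so larger differences are not excluded for all of them. Vcam1, the adhesion molecule that holds integrin-bearing leukocytes, measured 10.47, 10.45 and 10.63 in PBS and 11.27, 11.04 and 10.96 at day 4. The arrays did not overlap, and the change was 0.57 (95% interval 0.04 to 1.11, adjusted p = 0.596). That is the brightest of 4 tested probes, and the mean of the probes changed by 0.18. Ccl19 measured 12.30, 11.95 and 11.63 against 12.27, 12.46 and 12.15, a change of 0.33 (interval -0.27 to 0.94). Ccl21a changed by 0.11 (interval -0.50 to 0.71) and the B cell chemokine Cxcl13 by 0.06 (interval -0.56 to 0.69). Their arrays overlapped. The intervals leave room for changes of somewhat under 2-fold in any of these chemokines and not for larger ones.

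The remaining genes of this set did not pass the test either. Il7 measured 9.56, 8.74 and 8.68 in PBS and 9.21, 9.02 and 9.40 at day 4, and its 2 dimmer probes changed by -0.73 (SE 0.74) and 0.53 (SE 0.46). Il6, a cytokine that FRCs make when stimulated, changed by 0.31 (interval -0.30 to 0.92). Pdpn, the glycoprotein that sets FRC contractility, changed by 0.29 (interval -0.29 to 0.86). Thy1, a surface marker of fibroblasts, measured 8.84, 8.96 and 9.56 against 9.24, 8.80 and 8.60, a change of -0.24 (interval -0.94 to 0.46). Acta2, smooth muscle actin, changed by 0.45 (interval -0.24 to 1.13) with no overlap between its arrays: 10.54, 10.34 and 9.70 against 10.59, 10.54 and 10.79. Col1a1, Pdgfra, Icam1 and Cxcl12 lay between -0.08 and 0.12. Pdgfrb, a receptor of fibroblasts and pericytes, changed by 0.36 (interval -0.40 to 1.13). Ltbr could not be read at this depth, since PBS replicate 1 stood at 7.73 and PBS replicates 2 and 3 at 5.55 and 5.45, and its interval spanned -1.36 to 1.31.

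**Figure D3:**
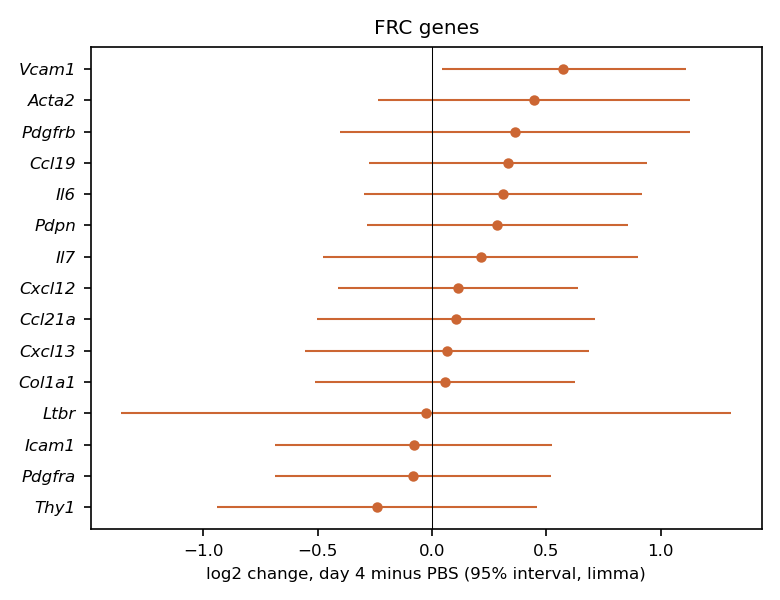
Log2 change from PBS to day 4 (horizontal axis) for 15 FRC genes, with 95% intervals from limma, ordered by size of change. Only the interval of Vcam1 does not reach 0, and the intervals together span -1.36 to 1.31.

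Across the whole FRC identity list of 31 tested genes, 20 had higher and 11 lower values and the median change was 0.12, against 0.04 over all tested genes. Grem1, a secreted BMP antagonist made by a subset of FRCs, measured 9.19, 9.10 and 9.26 in PBS and 9.95, 10.04 and 9.75 at day 4. That is a change of 0.73 (SE 0.24, adjusted p = 0.462), which ranged from 0.66 to 0.82 over 19 other settings. Grem1 and Vcam1, 2 of the 31, had an unadjusted p under 0.05 with higher values, against 4.73% of all tested genes. Of 16 chemokines and survival factors of the T zone, 13 had higher values, none at an unadjusted p under 0.05, with a median of 0.12. The lowest p there belonged to Tslp, an epithelial and stromal cytokine, at a change of 0.58 (SE 0.36) with overlapping arrays. Igf1, a growth factor, changed by -0.37 (SE 0.27) there.

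Genes of cholesterol synthesis were the group with the highest share of members at an unadjusted p under 0.05 among the 17 functional lists. Cells make cholesterol from acetyl-CoA through the mevalonate pathway and squalene. The transcription factor Srebf2 switches these enzymes on together when sterols in the endoplasmic reticulum run low, and Scap and the Insig proteins carry and retain it. Of 15 tested members, 12 had higher values at day 4, 6 of them at an unadjusted p under 0.05, against 4.73% of all tested genes. No member passed the adjusted test. The median change was 0.44. The median of the list on the single arrays, relative to each gene's PBS mean, lay at 0.43, 0.60 and 0.49 for day 4 and between -0.07 and -0.02 for PBS.

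The 6 members with an unadjusted p under 0.05 were enzymes of separate steps and the regulator Srebf2. Cyp51, the demethylase of lanosterol, measured 5.74, 5.42 and 5.70 in PBS and 6.97, 7.11 and 6.77 at day 4. At least 1.90-fold separated the groups (adjusted p = 0.258), a lower bound because no PBS array showed the probe well above background. Ebp, which moves a double bond in the sterol ring, measured 4.77, 6.26 and 5.46 against 6.55, 6.93 and 6.98, a change of 1.32 (SE 0.37, adjusted p = 0.394). Nsdhl, which acts in the removal of the C4 methyl groups, measured 5.99, 6.22 and 6.48 against 7.11, 7.60 and 6.89, a change of 0.97 (adjusted p = 0.448). These groups did not overlap. Fdps, the farnesyl diphosphate synthase ahead of squalene, measured 6.01, 6.92 and 7.24 against 7.52, 7.63 and 7.45. Sqle, the squalene epoxidase, a rate-limiting enzyme, measured 6.68, 7.57 and 7.13 against 7.56, 8.15 and 8.34, and here PBS replicate 2 and day 4 replicate 1 met. Srebf2 itself measured 7.43, 6.05 and 6.67 against 7.70, 7.15 and 7.98, also with overlap.

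The other members differed less. Pmvk changed by 0.98, with PBS values from 4.98 to 7.12, and Msmo1 by 0.44. Idi1 and Insig1, both detected on all 6 arrays, changed by 0.30 and 0.28. Hsd17b7 and Lss changed by 0.09 and 0.00, and Insig2, Srebf1 and Scap by -0.09, -0.11 and -0.13. Cyp51 passed the detection filter through the day 4 arrays alone and so had to differ. Without the filter, 16 of the 21 list genes on the array had higher values with a median of 0.36, against 49.7% of all 19057 genes and a median near 0. The 6 added genes were Mvk, Mvd, Tm7sf2 and Sc5d, detected on no array, and Dhcr7 and Stard4, detected on 2 arrays and 1. Without PBS replicate 1, 14 of 15 tested members had higher values, with a median of 0.55. Of these, 5 had an unadjusted p under 0.05, against 376 of 8476 genes. Among genes detected on all 6 arrays the median was 0.18, with 7 of 10 members higher and 2 at an unadjusted p under 0.05.

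**Figure D4:**
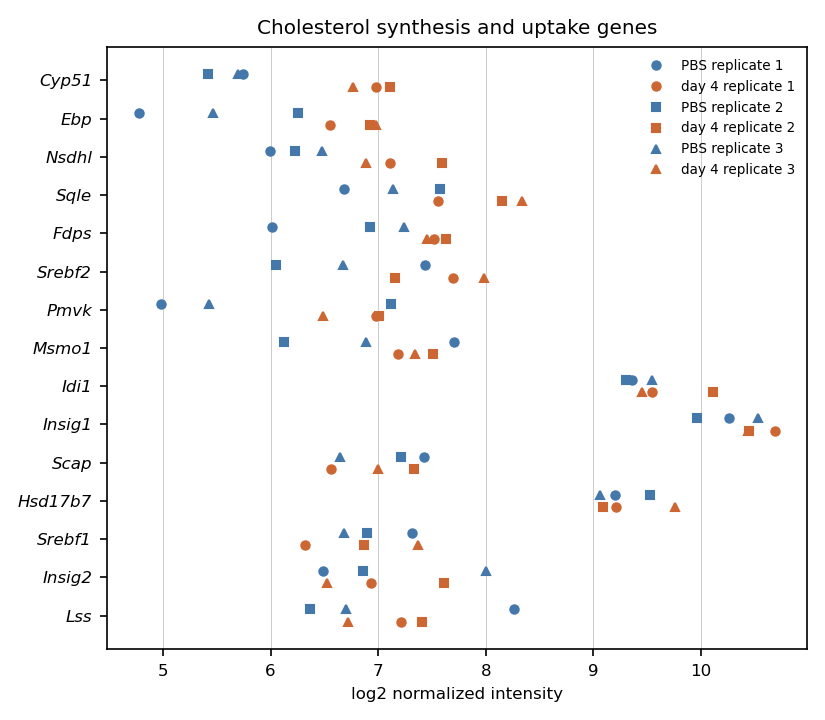
Log2 normalized intensity (horizontal axis) on each array for the 15 tested genes of cholesterol synthesis and uptake, in order of p. Cyp51, Ebp, Nsdhl and Fdps show no overlap between PBS (blue) and day 4 (orange), while the arrays of the lower 8 genes are mixed.

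The promoters of the 3 members with the lowest p are shown because the genes of this pathway share known promoter elements: a sterol response element and, close to it, CCAAT boxes bound by NF-Y. The sequences are the 250 bases before the annotated start in RefSeq on GRCm38.p6, read 5′ to 3′ on the gene's strand. CCAAT on either strand (ATTGG where it lies on the other strand) is in capitals. Cyp51 is at chr5:4104698-4104947 on the minus strand, Ebp at chrX:8193513-8193762 on the minus strand and Nsdhl at chrX:72918271-72918520 on the plus strand.
Cyp51: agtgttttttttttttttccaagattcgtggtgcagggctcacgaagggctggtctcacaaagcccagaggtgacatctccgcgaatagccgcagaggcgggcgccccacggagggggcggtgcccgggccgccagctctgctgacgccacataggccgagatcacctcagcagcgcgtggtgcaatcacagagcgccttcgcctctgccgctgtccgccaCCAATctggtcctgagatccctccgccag
Ebp: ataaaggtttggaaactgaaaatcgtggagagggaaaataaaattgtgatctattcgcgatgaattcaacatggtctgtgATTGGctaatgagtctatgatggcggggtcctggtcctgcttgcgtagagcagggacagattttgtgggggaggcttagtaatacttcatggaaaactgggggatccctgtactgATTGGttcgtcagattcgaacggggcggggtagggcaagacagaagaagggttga
Nsdhl: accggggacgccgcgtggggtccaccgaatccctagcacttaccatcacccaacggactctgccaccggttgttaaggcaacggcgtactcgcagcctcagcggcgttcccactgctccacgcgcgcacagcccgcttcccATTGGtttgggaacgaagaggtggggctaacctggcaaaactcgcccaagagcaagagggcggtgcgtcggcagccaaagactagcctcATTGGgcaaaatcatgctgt
Cyp51 holds 1 match, which begins 29 bases before the start, and Ebp and Nsdhl hold 2 each. Of the 13 tested list genes with a promoter entry, 12 held CCAAT on either strand within these 250 bases, against 40.3% of 6841 tested genes with an entry and 37.5% of all 27025 genes. The sterol element written as TCACNCCAC, searched on both strands, was in none of the 13 and in 1.22% of all genes. A string this rare would seldom be met in 13 windows, and other forms of the element were not searched. Its absence here therefore does not show that these promoters lack a sterol element. Matches of either string describe letters in a window and not sites of binding.

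Genes of mitosis and DNA replication had a similar median. Of 29 tested members, 22 had higher values, against 53.9% of all tested genes, 3 of them at an unadjusted p under 0.05 (background 4.73%), with a median of 0.41. Rrm2, the regulated subunit of the enzyme that makes deoxynucleotides, measured 7.74, 7.54 and 7.35 in PBS and 8.39, 8.58 and 8.27 at day 4. Its second probe changed by 0.94 (SE 0.33), close to the 0.87 (SE 0.28, adjusted p = 0.464) of the first. Tpx2, a spindle assembly factor, measured 5.54, 5.53 and 6.79 against 8.43, 7.55 and 6.42, with day 4 replicate 3 inside the PBS range. Cdca3, which helps mitotic entry, measured 6.05, 7.71 and 6.61 at day 4, but its probe was detected on no PBS array and so had to differ to be tested. Mcm2 and Pcna, of the replication fork, changed by 0.75 and 0.41, and the G1 cyclin Ccnd1 by 0.45, all 3 with no overlap. Members went the other way too, such as the mitotic kinesin Kif20a at -0.80 and the replication licensing factor Cdt1 at -0.81, with overlapping arrays. Many of these genes were near the detection limit: 14 of the 47 on the array were detected on all 6 arrays and 18 failed the filter. Without the filter, 34 of 47 had higher values, with a median of 0.34.

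Subunits of the mitochondrial respiratory chain and ATP synthase had 50 of 68 tested members with higher values, against 53.9% of all tested genes, and a median of 0.21. Of these, 5 had an unadjusted p under 0.05, a share near the 4.73% of all tested genes. Ndufs1, the largest subunit of complex I, measured 4.83, 5.65 and 5.34 in PBS, never well above background, and 7.11, 6.48 and 6.58 at day 4, at least 1.62-fold higher. It passed the detection filter through day 4 alone and so had to differ. Sdhb, the iron-sulphur subunit of complex II, measured 6.12, 6.38 and 5.68 against 7.55, 7.09 and 6.45. Complex I subunits Ndufs7, Ndufb9 and Ndufa9 changed by 1.0, 0.77 and 0.64. The arrays of the list were not apart: PBS medians ran from -0.16 on replicate 1 to 0.20 on replicate 2, and day 4 medians from 0.14 to 0.40. Several subunits were far lower on PBS replicate 1 than on any other array, among them Ndufa8 at 5.36 against 8.30 to 8.84 and Uqcr11 at 6.69 against 8.75 to 9.56. Without that array the median was 0.13, and 2 members had an unadjusted p under 0.05 with higher values, against 376 of 8476 genes.

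Glycolysis and hypoxia genes had 16 of 21 tested members with higher values, against 53.9% of all tested genes, and a median of 0.22. At an unadjusted p under 0.05, 3 had higher values and 1 lower, against 4.73% and 3.34% of all tested genes. Pkm, pyruvate kinase, measured 7.96, 8.70 and 8.36 in PBS and 9.19, 8.99 and 8.91 at day 4. Tpi1, triosephosphate isomerase, measured 8.28, 8.72 and 9.02 against 9.29, 9.60 and 9.26. Neither gene's arrays overlapped. Adm, the vasodilator adrenomedullin, changed by 0.89 (SE 0.30), and Ankrd37, another hypoxia target, by -0.90 (SE 0.34). The list leaned on PBS replicate 1, whose median was -0.31: without it the median was 0.06. There 1 member had an unadjusted p under 0.05, against 376 of 8476 genes with higher and 334 with lower values.

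**Figure D5:**
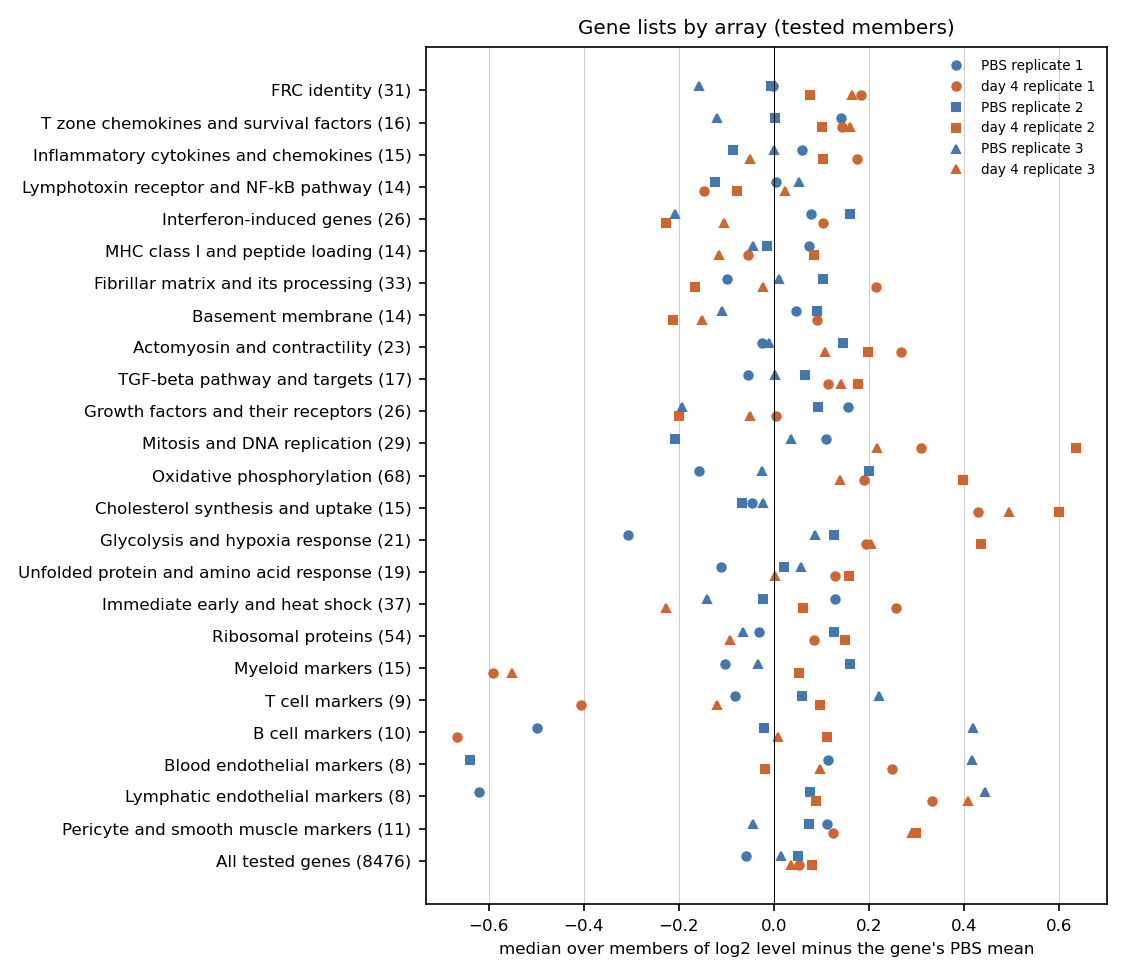
Median over the tested members of each gene list of the log2 level minus the gene's PBS mean (horizontal axis), 1 point per array, with the number of members in brackets and all tested genes in the last line. Lists with fewer than 5 tested members are left out. Cholesterol synthesis and mitosis have all day 4 arrays (orange) above all PBS arrays (blue), the myeloid list has 2 day 4 arrays at -0.59 and -0.55, and all tested genes lie between -0.06 and 0.08.

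Of all 28 lists, 7 had the medians of all day 4 arrays above those of all PBS arrays, 1 had them below, and 20 overlapped. Random labels of 3 against 3 arrays separate a list in either direction with a chance of 0.1. Some lists share members, such as Acta2, and the counts were not tested. The 7 include a plasma cell list of 4 tested members and the pericyte list, at 0.113 against 0.125. Medians of all tested genes reached 0.0509 in PBS and began at 0.0366 at day 4.

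Matrix genes showed no common shift. Of 33 fibrillar matrix genes, 15 had higher and 18 lower values, with a median of -0.02. Of the 33, 1 had an unadjusted p under 0.05 with higher values, against 4.73% of all tested genes. It was Tnc, the matrix glycoprotein tenascin C, which measured 8.55, 8.17 and 9.03 in PBS and 9.48, 9.41 and 9.51 at day 4. Its change of 0.88 (SE 0.29, adjusted p = 0.464) came from 1 of 4 tested probes, and the mean of the probes changed by 0.20. The protease Mmp9 changed by 0.92 (SE 0.43) and the protease inhibitor Timp1 by 1.20, both with overlap, and Postn by -0.45. The collagens Col1a1, Col1a2 and Col3a1 changed by 0.06, -0.20 and 0.12. Basement membrane genes had 5 of 14 with higher values and a median of -0.07, with Lama2 at -0.58 (SE 0.36) and Col18a1 at -0.53 (SE 0.34).

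Contractile genes had 15 of 23 members with higher values and a median of 0.10. Vcl, the focal adhesion protein vinculin, measured 8.44, 8.89 and 8.77 in PBS and 9.24, 9.04 and 9.98 at day 4. Actn4, a non-muscle actin crosslinker, went the other way at -1.17 (SE 0.33, adjusted p = 0.406), with 8.11, 8.29 and 8.19 against 6.91, 7.15 and 7.03. Its 2 other probes changed by 0.16 (SE 0.36) and 0.92 (SE 0.39), so the direction for Actn4 is uncertain. Among 17 TGF-beta pathway genes, 11 had higher values, with a median of 0.06. Smad3, a signal transducer of TGF-beta, changed by -0.84 (SE 0.32, adjusted p = 0.544) at one probe and by 0.04 (SE 0.28) at the other, while Tgfbi, a target of the pathway, measured 10.77, 10.55 and 10.14 against 10.96, 10.94 and 11.02. Growth factors and their receptors had 10 of 26 with higher values, and Pdgfa, a mitogen of fibroblasts, had the lowest p at a change of 0.70 (SE 0.29), while Fgf1 changed by -0.50 (SE 0.33).

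Inflammatory genes were centred near 0. Of 15 inflammatory cytokines and chemokines, 7 had higher and 8 lower values, with a median of -0.04. Ccl4 and Il1b, 2 of the 15, had an unadjusted p under 0.05 with lower values, against 3.34% of all tested genes. Ccl4 passed the detection filter through PBS alone and so had to differ. Il1b, a cytokine made mainly by myeloid cells, measured 7.61, 8.31 and 7.39 in PBS and 6.32, 6.98 and 4.76 at day 4 (change -1.75, SE 0.51, adjusted p = 0.427). Tnf, Il1a, Ccl3, Nos2 and Csf2 were detected on none of the 6 arrays. Interferon-induced genes had 12 of 26 members with higher values and a median of -0.01, and MHC class I genes 7 of 14 and a median of 0.00. Ifit2, an interferon-induced inhibitor of translation, changed by -0.82 (SE 0.36), and the immunoproteasome subunit Psmb8 by 0.81 (SE 0.40). Nlrc5, an activator of MHC class I genes, changed by -0.62 (SE 0.33) and H2-M3 by 0.79 (SE 0.46). The lymphotoxin receptor and NF-kB list had 6 of 14 with higher values. Within it the kinase Ikbkb had lower values at a probe detected on no day 4 array, which so had to differ to be tested. Its second probe changed by 0.43 (SE 0.39). The probes of Ikbkg, the regulatory subunit, disagreed as well, at 0.73 (SE 0.29) and -0.83 (SE 0.36).

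Stress lists were centred near 0. Immediate early and heat shock genes, which respond within minutes to the handling of tissue, had 22 of 37 members with higher values, none at an unadjusted p under 0.05, and a median of 0.06. Ier5 changed by 0.52 (SE 0.26) and Nr4a2 by -0.48 (SE 0.25). The unfolded protein and amino acid response list had 10 of 19 with higher values and a median of 0.03. Psat1, an enzyme of serine synthesis, changed by 1.40 (SE 0.59) with PBS replicate 1 at 5.01 and the other PBS arrays at 7.06 and 7.23. Its day 4 values were 7.29, 8.78 and 7.42, the first and last of them close to those 2 arrays. Slc7a11, the cystine importer, changed by 0.69 (SE 0.31) at its brightest probe and by 0.79 (SE 0.28) and -0.36 (SE 0.37) at the others.

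Leukocyte markers had mostly lower values at day 4. Of 15 tested myeloid markers, 12 had lower values, 3 at an unadjusted p under 0.05 against 3.34% of all tested genes, with a median of -0.33. Fcer1g, the signalling chain of Fc receptors, measured 6.61, 6.48 and 6.44 in PBS and 4.68, 5.62 and 4.61 at day 4 (adjusted p = 0.337). It was not well above background on any day 4 array, so it was at least 1.68-fold lower, passed the detection filter through PBS alone and so had to differ. Lyz2, the lysozyme of macrophages and neutrophils, measured 10.00, 9.85 and 9.48 against 9.22, 9.43 and 8.37. Tyrobp, Cd74 and Laptm5 changed by -0.84, -0.75 and -0.60, each with no overlap. Ptprc changed by -0.12 at its brightest probe and by -0.61 (SE 0.47) and -0.83 (SE 0.55) at its other probes. Aif1 changed by 0.17, 0.41 (SE 0.42) and -0.32 (SE 0.40). Without the filter, 21 of 27 had lower values, 8 at an unadjusted p under 0.05 against 3.16% of all genes. In such bulk RNA, fewer leukocytes and less of these RNAs per leukocyte cannot be told apart.

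The list was uneven between day 4 animals. Its mean level was 8.58, 8.84 and 8.70 on the PBS arrays and 7.98, 8.65 and 8.01 on the day 4 arrays, so replicate 2 lay within the PBS range. Without PBS replicate 1 its median was -0.57. Ccl4 and Il1b, which the same cells make, had lower values alongside these markers, and the part of leukocytes in those changes was not tested.

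T cell markers had 7 of 9 with lower values and a median of -0.28. Cd3e, the T cell receptor chain, measured 7.32, 7.46 and 7.42 against 6.27, 5.81 and 5.26 (change -1.61, SE 0.32, adjusted p = 0.258), and its second probe changed by -0.88 (SE 0.46). Cd8a changed by -0.03 and Ccr7 by -0.28, and Lat and the regulatory T cell factor Foxp3 had higher values at 0.81 and 0.59, with overlap. Mean levels of the list were 7.10 to 7.26 in PBS and 6.66, 7.22 and 6.81 at day 4. B cell markers had 7 of 10 with lower values, a median of -0.33 and mean levels of 7.35 to 8.0 in PBS and 6.98 to 7.66 at day 4, with Cr2 at 0.03 and Fcer2a at -0.25. Of 4 tested plasma cell markers, Irf4, also a factor of activated lymphocytes, changed by 1.41, Xbp1 by 0.11 and Jchain by -0.25, while Ighg1 was detected on no array.

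Markers of vessels and fat differed by list. Blood endothelial markers had 4 of 8 with higher values and a median of -0.01, and Pecam1 changed by -0.64 (SE 0.38) and Ramp2 by 0.14. Lymphatic endothelial markers had 6 of 8 with higher values, and their mean level was 7.53 on PBS replicate 1 against 8.10 to 8.34 on the other 5 arrays. Pericyte and smooth muscle markers had 7 of 11 with higher values and a median of 0.23, with the abundant members Des and Rgs5 at 0.23 and 0.21, and the highest PBS array median (0.11) was just under the lowest of day 4 (0.12). In the adipocyte list 4 of 4 tested members had lower values, with a median of -0.61. Its members were Pparg, the adipocyte master regulator, which measured 7.44, 6.29 and 6.24 against 5.68, 5.43 and 6.00, Fabp4 at -1.36, Lpl at -0.26 and Scd1 at -0.08. Adipoq, Plin1 and Lep, which define fat cells, were detected on none of the 6 arrays. Of the erythroid and platelet markers 2 were tested. Gp9 changed by -0.24, and the platelet chemokine Pf4, never well above background in PBS, was at least 1.06-fold higher. Pf4 passed the detection filter through day 4 alone and so had to differ. Pigment genes Tyr, Dct, Mlana and Sox10 were detected on no array, and Mitf and Gpnmb, the tested members of that list, both changed by 0.12 with overlap.

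The day 11 arrays share the PBS arrays with this comparison, so the values stand side by side only. Genes picked for a low p at day 4 tend to have smaller changes elsewhere by that choice alone, so no count over them is given. Exosc9, Slco1c1 and Gal3st2b changed by 1.42, -1.33 and -1.81 at day 11. Nfasc changed by 0.09, Synm by 0.40 and Cd3e by -0.33. Il1b changed by 0.35 from PBS at day 11, against -1.75 at day 4. The median of the cholesterol list was 0.41 at day 11 against 0.44 at day 4, that of mitosis 0.72 against 0.41, and that of myeloid markers 0.26 against -0.33. Thy1 was 1.53 above PBS at day 11 (adjusted p = 0.223) and -0.24 at day 4. None of the 91 genes named by rule differed between day 11 and day 4 at an adjusted p of 0.05, the smallest being 0.497 for Thy1.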

How the data were processed

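The authors deposited a table of raw, non-normalized bead intensities with a detection p-value per probe and array, and a second table of processed intensities. The submitters' processing notes name lumi, with removal of undetected probes, variance stabilization, quantile normalization and limma. RNA was amplified before labelling, per the labels' protocols, so intensities are those of amplified RNA. The deposited processed intensities have 1 common distribution on every array and served as an alternative.

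The raw intensities were corrected and normalized by the neqc function (limma 3.58.1, R 4.3.3; background from the detection p, offset 16, quantile) over all 9 arrays, which have no counting depth; the number of arrays limits precision. Probes were named through the platform table and RefSeq: 34885 carried 1 symbol, 18 several and 10378 none. The fit had 6 residual degrees of freedom. No column of other samples was present.

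Genes named were, among genes with no overlap between groups and no contradicting probe, the 6 with the lowest p in each direction detected on all 6 arrays and the 6 among the others, the 2 lowest p values of each functional list, 15 FRC genes and the 2 brightest members of each marker list. Of the genes this rule names, 1 is not reported here. Further list members were named after their values were seen. The members and the 28 gene lists were chosen with earlier results of these data known. Replicate numbers did not pair the arrays: the deviations of same-numbered PBS and day 4 arrays correlated at 0.0172, 0.0266 and 0.0629. The test was tested on simulated data, but the outcome is not reported here. Alternatives were other background, scaling, filter and model settings and each array left out.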

Additional observations from a re-analysis of the deposited data

How the results depend on the processing

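No gene passed an adjusted p of 0.05 in limma in the fit reported or in any of 19 other settings; the smallest adjusted p ran from 0.0977 (without PBS replicate 2) to 0.607 (fit of the 6 arrays alone). At an unadjusted p under 0.05 the counts, 401 higher and 283 lower, became 715 and 602 with no detection filter and 223 and 217 with detection on all 6 arrays. These settings test more and fewer genes, but the always-detected genes had 149 and 160 in the fit of all tested genes, so the number of genes is not all that changed, and the rest was not tested. The counts were 275 and 192 with the 6 arrays alone and 402 and 266 with the replicate number as a block (replicate block, 0 genes at an adjusted p of 0.05). Leaving out single arrays gave 324 to 608 higher, the last without PBS replicate 2, and 264 to 334 lower; the cause was not tested. The share of genes without overlap, 10.5%, was 18.7% to 23.4% with 1 array fewer, by construction. A block for slides could not be tried, as the headers name none.

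List medians of cholesterol synthesis (0.18 to 0.64), mitosis (0.26 to 0.52), oxidative phosphorylation (0.11 to 0.29) and myeloid markers (-0.57 to -0.24) kept their sign in all 19 settings. Of the named genes' values under these settings, 1664 kept their sign and 36 changed it; the cause was not tested. With 75th percentile scaling Ltbr read 0.0762, Pdgfra 0.0059 and Scd1 0.0036. With array weights Cr2 read -0.12, Cxcl13 -0.0192, Icam1 0.0126, Ltbr 0.24 and Mitf -0.0142. With the mean of probes Cxcl12 read -0.0031, Fcer2a 0.0008 and Ikbkg -0.0487. Leaving out each array in turn gave values on both sides of 0 for Aif1 (-0.072 to 0.30), Ccl21a (-0.0121 to 0.23), Ccr7 (-0.68 to 0.0375), Col1a1 (-0.0675 to 0.15), Cr2 (-0.37 to 0.40), Cxcl13 (-0.14 to 0.20), Gp9 (-0.53 to 0.0287), Gpnmb (-0.14 to 0.49), Icam1 (-0.24 to 0.14), Ltbr (-0.42 to 0.71), Mitf (-0.23 to 0.59), Pdgfra (-0.22 to 0.0387), Ptprc (-0.30 to 0.0423), Ramp2 (-0.22 to 0.48) and Scd1 (-0.34 to 0.0848). Detection limits the reading of the 3205 tested genes not detected on all 6 arrays, whose median standard error was 0.47 against 0.33.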
